A study of Mus musculus with 18 samples.

Results

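The induction of primordial germ cell-like cells (PGCLC) from epiblast-like cells (EpiLC) was followed in mouse cells labelled Esrrb KO, by setting 3 day 3 PGCLC libraries against the 3 EpiLC libraries of the same lines. These 6 libraries, of 18 in the series, were chosen by genotype and stage label and paired by the line names A5, B1 and A2. All cells derive from SGET embryonic stem cells of a B6CBA/129 background, kept in 2i medium with LIF, whose SG and ET reporters mark Stella (Dppa3) and Esg1 (Dppa5a). EpiLC were grown on fibronectin with activin A at 20 ng/ml and bFGF at 12.5 ng/ml and were not sorted. PGCLC were induced with BMP4 and BMP8a at 500 ng/ml each, EGF at 50 ng/ml, SCF at 100 ng/ml and LIF at 1000 U/ml, and cells with SG signal and low ET signal were sorted on day 3. WT cells of the same parental line went through the same steps (3 libraries a stage) and serve below only for the comparison of the induction step between genotypes. The 3 KO libraries of day 5, named day 6 in other labels, enter the fit only to estimate spread and line differences. No label used here says whether a line is a clone or which part of Esrrb was deleted. With line as a block, p-values of the KO fit measure how stage changes, day 5 included, vary between these lines. Those of the fit of both genotypes also draw on the spread of WT replicates.

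In the mouse embryo, primordial germ cells arise when BMP4 acts on epiblast cells that have left naive pluripotency and passed into a formative state. The transcription factors Prdm1 (Blimp1), Prdm14 and Tfap2c then shut down somatic genes, bring back part of the naive network and begin to remove DNA methylation. Esrrb, an orphan nuclear receptor of the estrogen receptor family, belongs to that naive network with Nanog, Klf4 and Tfcp2l1, falls as cells become EpiLC, and is switched on again in germ cells.

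The 6 libraries held 3032965 to 4639303 counts each (median 4111842) and detected 13871 to 15123 genes. Values are given as CPM (counts scaled to the library total of the tested genes with edgeR's TMM factors), which differ slightly from the deposited CPM. WT values carry the scaling of the fit of both genotypes. Fold changes are given as log2 ± SE from edgeR's quasi-likelihood fit of the 9 KO libraries with line as a block. A gene was called at a Benjamini-Hochberg adjusted p under 0.05. The EpiLC library of line A2 stood apart: its root mean square log2 distance to the other KO EpiLC libraries was 0.898, against 0.475 for A5 and 0.584 for B1. In it, some members of the mesenchyme, endoderm and naive lists were already high, so counts are also given without line A2. EpiLC were unsorted and day 3 cells sorted, so sort and stage cannot be told apart. The libraries are bulk RNA, and fewer cells of a type cannot be told apart from less RNA per cell.

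Esrrb itself, on chromosome 12 from 86361117 to 86521628 (GRCm38, plus strand), was read in every KO library. In EpiLC it stood at 6.76 CPM in line A5, 4.57 in B1 and 40.0 in A2. At day 3 it stood at 163 CPM in A5, 166 in B1 and 91.7 in A2, so the stages did not overlap. The rise was 3.18 ± 0.76 (adjusted p = 0.0199), and 4.84 without line A2. The call was lost without line A5 (adjusted p = 0.181), without B1 (0.115), and without the single A5 EpiLC (0.0809), A5 day 3 (0.077) or B1 day 3 (0.07) library. In WT cells the mean rose from 27.3 CPM to 609 CPM, and the difference between the KO and WT steps was -1.43 ± 0.76 (adjusted p = 0.228). Hence the EpiLC library labelled KO A2 held more Esrrb RNA than the WT EpiLC mean, and day 3 libraries labelled KO held Esrrb RNA. Since counts cover the whole gene, they do not check the deletion.

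Of 12326 genes tested, 1987 (16.1%) were higher and 1908 (15.5%) lower at day 3, and the median log2 fold change was -0.02. Without line A2, 3261 (26.1%) were higher and 3221 (25.8%) lower of 12491. These shares over all tested genes are the background for the count of each gene list below. Of the 1987 higher genes 1946 (97.9%, or 59.7% of those called without A2) were also called without A2, and of the 1908 lower genes 1828 (95.8%, or 56.8%), and 0 genes were called in opposite directions. Leaving out line A5 left 256 higher and 196 lower genes, and leaving out B1 left 325 and 250. Leaving out only the A2 EpiLC library gave 3352 and 3247 genes higher and lower at day 3 in KO. Of 131 named genes called, 41 stayed past the threshold whichever line or single EpiLC or day 3 library was left out. Without A5 85 missed it, without B1 63 and without A2 1. Day 5 libraries were not left out singly, here or below.

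The lines differed most between A2 and the rest. On log2 ratios of CPM plus 1, line A5 had 1327 genes up and 1156 down at least 2-fold, B1 had 1458 and 1377, and A2 had 804 and 1256. Across these 12326 genes, which share each line's 2 libraries, the ratios of A5 and B1 correlated with r = 0.888, those of A5 and A2 with r = 0.528 and those of B1 and A2 with r = 0.52. A gene moved 2-fold in opposite directions 1 time between A5 and B1, 86 times between A5 and A2 and 113 times between B1 and A2. Fn1 (fibronectin) is an example, with 439 CPM in EpiLC A5, 286 in B1 and 5501 in A2, against 1131, 1280 and 1540 at day 3.

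**Figure D1:**
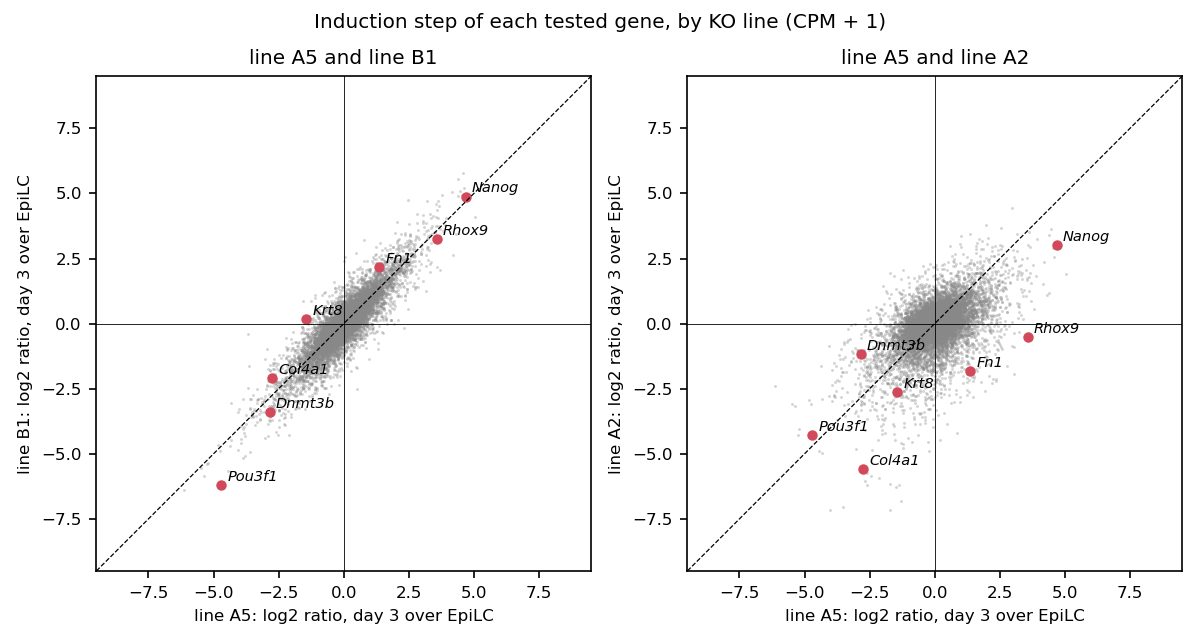
Each point is a tested gene, with the log2 ratio of CPM plus 1 at day 3 over EpiLC in line A5 on the x axis and in line B1 (left) or A2 (right) on the y axis; the dashed line marks equal steps. Genes of A5 and B1 lie along the dashed line, while in A2 Fn1 and Rhox9 fall where they rise in A5.

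Germ cell specification genes rose in the KO lines. Of 23 tested members of this list, 14 were higher and 1 lower, with a median of 2.01, against -0.02 over all tested genes. Without A2 the counts were 18 and 1 and the median 2.93. The higher members include Dppa3, whose reporter was used to sort the day 3 cells, so it adds no independent support. The line medians were 2.51 in A5, 2.47 in B1 and 1.58 in A2.

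Prdm1, which represses the somatic programme, was at 4.199 CPM in A5, 4.06 in B1 and 13.2 in A2 in EpiLC, and at 75.3, 69.4 and 48.8 at day 3. Every day 3 library lay above every EpiLC library, and the rise was 3.22 ± 0.43 (adjusted p = 0.00272), or 4.13 without A2. Prdm14, a repressor of FGF signalling and of DNA methyltransferase genes, went from 2.10, 0.508 and 5.26 CPM to 63.3, 69.4 and 65.4. That rise was 4.65 ± 0.50 (adjusted p = 0.00142), and the day 3 level was nearly the same in the 3 lines. Tfap2c, the AP-2 gamma factor, went from 9.33, 4.32 and 35.4 CPM to 250, 291 and 215, a rise of 4.07 ± 0.61 (adjusted p = 0.00429). Its EpiLC level was highest in A2, and without A2 the rise was 5.28. Prdm1 and Tfap2c missed the threshold without line A5 (adjusted p = 0.0602 and 0.0819).

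Nanos3, an RNA-binding protein that keeps early germ cells alive, was at 0.233, 1.02 and 1.196 CPM in EpiLC and at 10.04, 8.30 and 14.3 at day 3. It rose by 3.76 ± 0.50 (adjusted p = 0.00212), with line A2 the highest at day 3. Kit, the receptor of SCF, went from 19.4, 18.8 and 9.57 CPM to 115, 185 and 85.6, a rise of 2.98 ± 0.21 (adjusted p = 0.000476). Ifitm1, a surface protein of early germ cells, rose by 3.77 ± 0.17 (adjusted p = 0.000181), from 22.9, 12.7 and 23.9 CPM to 292, 229 and 285. Both rises were alike in all 3 lines. None of Nanos3, Kit and Ifitm1 lost its call when a line or an EpiLC or day 3 library was left out. Reads of Ifitm genes may be shared among near-identical copies.

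Not every specification gene moved. Dnd1, a partner of Nanos proteins, went from 20.1, 22.6 and 8.37 CPM to 24.0, 40.8 and 21.2 and missed the threshold (0.76 ± 0.26, adjusted p = 0.0587; 0.56 and 0.0249 without A2). The lower member, Rhox5, a homeobox gene on the X chromosome named here after its values were seen, went from 268, 155 and 111 CPM to 138, 66.1 and 49.8 (-1.11 ± 0.17, adjusted p = 0.0038). T (brachyury) was too low to be tested, with 7 counts over the EpiLC libraries and 19 over those of day 3. Dppa3 rose by 3.37 ± 0.39 and Dppa5a by 1.51 ± 0.23. Day 3 cells were gated for Dppa3 reporter signal and for low Dppa5a reporter signal. Neither value can be read apart from the sort, whose part was not tested.

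Naive pluripotency genes returned together with the germ cell factors. Prdm14, Dppa3 and Tfcp2l1 stand on both lists. Of 20 tested, 16 were higher and 1 lower, the same numbers without A2, with medians of 2.40 and, without A2, 2.97. The higher members include Dppa3, whose reporter signal the sort selected for, so it adds no independent support. Dppa5a, also higher, was gated for low reporter signal, and its value cannot be read apart from the sort. The line medians were 2.56 in A5, 2.96 in B1 and 1.49 in A2. Nanog, the homeobox factor of the naive network, went from 19.1, 11.9 and 64.1 CPM to 518, 380 and 521, a rise of 4.07 ± 0.48 (adjusted p = 0.00192). All day 3 libraries were far above all EpiLC libraries. Klf2 went from 89.6, 42.2 and 79.2 CPM to 532, 475 and 292 (2.59 ± 0.33, adjusted p = 0.00225). Klf4, its relative in the Kruppel-like family, went from 4.199, 3.30 and 14.6 to 29.7, 32.5 and 46.2 (2.40 ± 0.47, adjusted p = 0.00913). A2 was the lowest line at day 3 for Klf2 and the highest for Klf4.

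Tfcp2l1, a CP2-family factor that acts with Esrrb in the naive network, went from 10.5, 6.86 and 74.6 CPM to 115, 130 and 248 (2.83 ± 0.52, adjusted p = 0.00807; 3.80 without A2). The EpiLC libraries spread over more than 10-fold, with A2 on top. Jam2, an adhesion molecule on pluripotent and germ cells, rose by 4.88 ± 0.52 (adjusted p = 0.00133), from 0.700, 0.254 and 2.15 CPM to 38.2, 37.5 and 22.5. Without line A5 the calls of these 5 genes were lost while the rises stayed of like size. They were then 3.75 for Nanog (adjusted p = 0.0531), 2.62 for Klf2 (0.0517), 2.21 for Klf4 (0.109), 2.58 for Tfcp2l1 (0.111) and 4.49 for Jam2 (0.0517). The naive member that fell was Gbx2, also on the neural list, from 73.9, 49.5 and 112 CPM to 9.60, 3.65 and 12.3 (-3.20 ± 0.25, adjusted p = 0.000493).

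**Figure D2:**
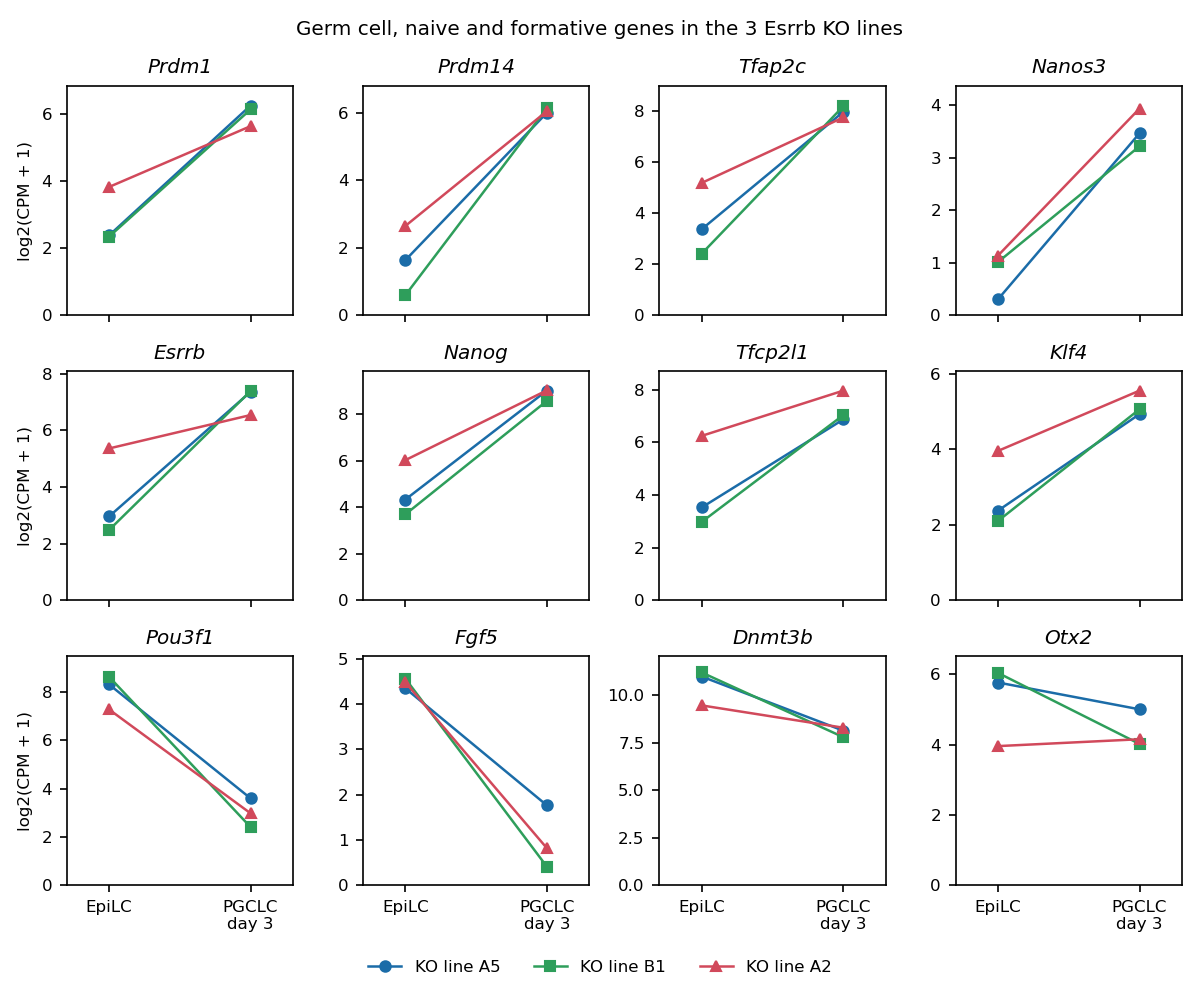
The y axes give log2 of CPM plus 1 in EpiLC and day 3 PGCLC for 12 genes, 1 line per KO line. The germ cell and naive genes (top and middle) rose in all lines from a higher EpiLC level in A2 than in A5 and B1, while Pou3f1, Fgf5 and Dnmt3b fell in all lines and Otx2 fell in A5 and B1.

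Genes shared by naive and formative cells moved less. Of 15 tested, 7 were higher and 2 lower, with a median of 0.18 (7 and 4 without A2, median 0.33). Sox2 went from 157, 138 and 248 CPM to 706, 558 and 674, a rise of 1.87 ± 0.17 (adjusted p = 0.000716). Pou5f1 (Oct4), its partner, went from 536, 605 and 674 CPM to 721, 707 and 1003, a rise of 0.41 ± 0.11 (adjusted p = 0.0259). The stages did not overlap for either gene, but the call of Pou5f1 was lost without line A5 (adjusted p = 0.163) or B1 (0.105) and without the EpiLC library of A5 (0.061) or B1 (0.0662) or the day 3 library of A5 (0.137) or A2 (0.0773). Sall4, a zinc-finger factor of pluripotent and germ cells, rose by 1.34 ± 0.13 (adjusted p = 0.00073), from 170, 166 and 187 CPM to 390, 388 and 561.

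Formative epiblast genes fell. Of 26 tested, 20 were lower and 1 higher, with a median of -1.57, and without A2 the counts were 22 and 1. Pou3f1 (Oct6), the POU factor of the epiblast, went from 317, 395 and 154 CPM to 11.1, 4.32 and 6.90 (-5.24 ± 0.48, adjusted p = 0.000931). Fgf5, an epiblast growth factor, went from 19.4, 22.6 and 21.3 CPM to 2.40, 0.332 and 0.766 (-4.29 ± 0.61, adjusted p = 0.00278). The SOXB1 factor Sox3 went from 62.1, 78.2 and 22.7 CPM to 1.31, 1.66 and 1.79 (-4.97 ± 0.43, adjusted p = 0.00065). For these genes the stages were far apart in each line. Wnt8a, a WNT ligand, fell by 4.38 ± 0.56 (adjusted p = 0.00187), from 26.4, 21.1 and 17.7 CPM to 0.873, 0.332 and 1.79. Otx2, which holds back germ cell entry, went from 53.7, 65.0 and 14.6 CPM to 31.2, 15.3 and 16.9. It was already low in EpiLC A2, the stages overlapped, and its change of -1.03 ± 0.49 missed the threshold (adjusted p = 0.152; -1.38 and 0.0337 without A2).

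**Figure D3:**
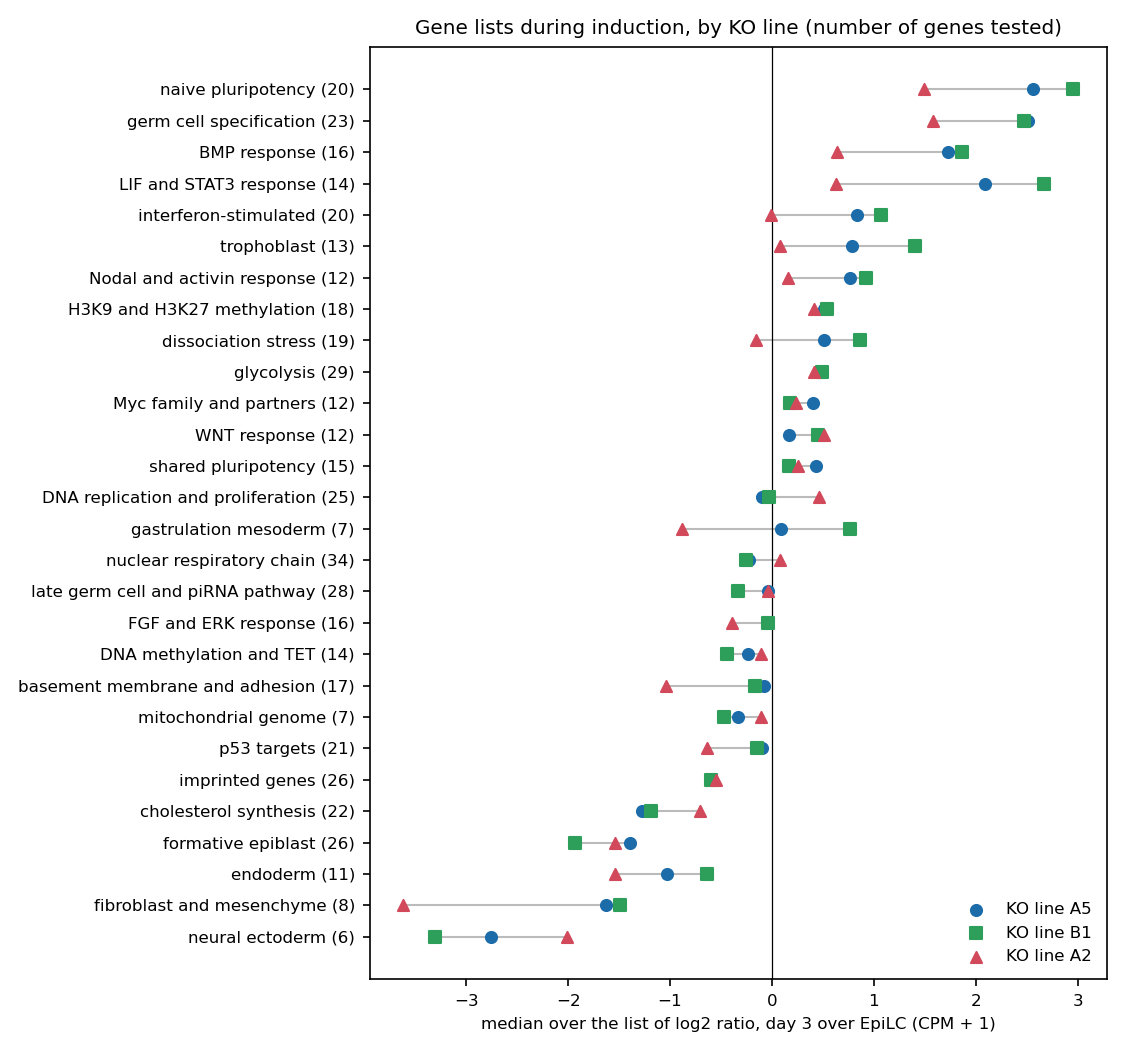
For each gene list with at least 6 tested genes (number in brackets), the x axis gives the median log2 ratio of day 3 over EpiLC (CPM plus 1) in KO lines A5, B1 and A2. The naive list has the highest median in A5 (2.56) and B1 (2.96) and the germ cell specification list in A2 (1.58), and the fibroblast list reaches -3.62 in A2, against -1.63 in A5 and -1.49 in B1.

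The de novo DNA methylation genes fell with the formative genes. Of 14 tested members of the DNA methylation and TET list, 6 were lower and 2 higher (8 and 3 without A2). Dnmt3a, a de novo methyltransferase, went from 907, 979 and 784 CPM to 139, 121 and 198 (-2.58 ± 0.19, adjusted p = 0.000476). Dnmt3b, its paralogue, went from 2018, 2341 and 704 CPM to 280, 221 and 312 (-2.60 ± 0.47, adjusted p = 0.00761), and missed the threshold without A5 (0.11) or B1 (0.0624). EpiLC A2 held less Dnmt3b than the other EpiLC libraries. Tet3, which oxidises methylcytosine, went from 49.7, 51.3 and 41.4 CPM to 10.7, 11.6 and 14.6 (-1.94 ± 0.20, adjusted p = 0.000972). The higher members were Dnmt1, the maintenance enzyme (0.70 ± 0.10, adjusted p = 0.0024, named after its value was seen), and Tet1 (0.90 ± 0.23, adjusted p = 0.0231, 0.22 without A5 and 0.18 without B1). Uhrf1, the cofactor that recruits Dnmt1 to replicated DNA, went from 362, 346 and 336 CPM to 288, 293 and 371 and did not pass (-0.14 ± 0.11, adjusted p = 0.328; -0.28 and 0.0166 without A2).

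Of 18 tested genes for methylation and demethylation of H3K9 and H3K27, 10 were higher and 2 lower, with a median of 0.54 (10 and 4 without A2). Suz12, a core subunit of Polycomb complex PRC2, went from 432, 390 and 263 CPM to 1037, 993 and 514 (1.19 ± 0.11, adjusted p = 0.000707). Ezh1, an H3K27 methyltransferase of the same complex, went from 80.2, 56.4 and 43.3 CPM to 192, 190 and 98.1 (1.40 ± 0.13, adjusted p = 0.000782). A2 was the lowest line for both genes at both stages, yet its own levels rose. Ehmt1 (GLP), an H3K9 dimethyltransferase, went from 121, 157 and 152 CPM to 160, 157 and 135 (0.07 ± 0.15, adjusted p = 0.733).

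Genes of the late germ line, used in meiosis and in piRNA defence against transposons, moved in both directions. Of 28 tested, 4 were higher and 5 lower, with a median of -0.19, and 19 were not called, beside 16.1% higher and 15.5% lower over all tested genes. Without A2, 5 were higher and 9 lower, beside 26.1% and 25.8%. In embryonic stem cells many such promoters are kept silent by Polycomb complex PRC1.6, whose MGA and MAX subunits bind the E-box CACGTG. This palindromic hexamer lay within 250 bases before to 50 after a start site for 14 of the 29 list members in the RefSeq promoter table (48.3%). It was found for 8.09% of all 27025 genes in the table, for 12.2% of the 8808 tested genes, for 13.7% of the higher and for 11.3% of the lower ones. The nuclear receptor element TCAAGGTCA, which holds the half-site AGGTCA and was searched on both strands, was found for 0.466% of all genes, 0.341% of tested, 0.346% of higher and 0.221% of lower genes. It was found for none of the 29. The stretches below show the E-box, in capitals, in list members that fell, stayed and rose (RefSeq, GRCm38.p6, 5′ to 3′ on the gene's strand):
Taf7l: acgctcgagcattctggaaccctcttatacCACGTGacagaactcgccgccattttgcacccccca
Mael: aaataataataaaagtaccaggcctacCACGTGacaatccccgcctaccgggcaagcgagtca
Sycp1: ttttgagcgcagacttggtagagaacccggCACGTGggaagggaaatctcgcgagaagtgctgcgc
Ddx4: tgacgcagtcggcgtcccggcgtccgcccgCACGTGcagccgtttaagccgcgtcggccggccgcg
Sycp3: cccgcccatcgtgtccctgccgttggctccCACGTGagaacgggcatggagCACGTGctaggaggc
Stk31: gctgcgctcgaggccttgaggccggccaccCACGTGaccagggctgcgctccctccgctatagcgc
Stag3: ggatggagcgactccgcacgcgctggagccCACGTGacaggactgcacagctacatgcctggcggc

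The stretches lie at chrX:134476504-134476569 (minus strand) for Taf7l, chr1:166238932-166238994 (minus) for Mael, chr3:102936159-102936224 (minus) for Sycp1 and chr13:112652304-112652369 (minus) for Ddx4. Those on the plus strand lie at chr10:88459493-88459558 for Sycp3, chr6:49395454-49395519 for Stk31 and chr5:138280309-138280374 for Stag3. The E-box starts 49 bases before the start site in Taf7l, 223 in Mael, 94 in Sycp1, 29 in Ddx4, 64 in Sycp3, 55 in Stk31 and 170 in Stag3.

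Genes with this same hexamer went in different directions. Taf7l, a testis relative of a TFIID subunit, went from 27.5, 33.5 and 28.2 CPM to 4.36, 5.65 and 2.30 (-2.93 ± 0.33, adjusted p = 0.0014). Mael, a piRNA pathway protein, went from 37.3, 35.6 and 17.7 CPM to 14.8, 6.31 and 7.92 (-1.65 ± 0.34, adjusted p = 0.00971, 0.0894 without A5 and 0.0929 without B1). Sycp1, of the synaptonemal complex, went from 23.6, 22.1 and 7.42 CPM to 7.20, 6.64 and 5.62 (-1.33 ± 0.30, adjusted p = 0.014). Stag3, a meiotic cohesin, went from 38.5, 43.9 and 42.1 CPM to 89.7, 86.3 and 73.8 (1.0 ± 0.13, adjusted p = 0.0018). Stk31, a kinase-like testis protein, rose by 0.72 ± 0.18 (adjusted p = 0.0202), from 21.5, 13.97 and 13.4 CPM to 29.7, 22.2 and 27.6. Sycp1, Stag3 and Stk31 were chosen for display after their values were seen. Ddx4 (vasa), an RNA helicase of later germ cells, stood at 34.8, 42.2 and 30.6 CPM in EpiLC and at 34.9, 28.6 and 21.2 at day 3 (-0.36 ± 0.17, adjusted p = 0.137). Sycp3 stood at 29.6, 24.4 and 7.66 CPM and then at 17.2, 15.9 and 7.41 (-0.55 ± 0.33, adjusted p = 0.231; -0.71 and 0.00733 without A2). Dazl, which licenses germ cells for later development and has no such hexamer in its window, stood at 26.8, 15.0 and 13.2 CPM and at 26.4, 17.9 and 12.8 (0.06 ± 0.21, adjusted p = 0.864).

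BMP4, BMP8a and LIF were in the PGCLC medium and not in that of EpiLC. Of 16 tested BMP response genes 8 were higher and none lower (median 1.89), and without A2 12 and 0 (median 2.18). The medians of this list by line were 1.73 in A5, 1.87 in B1 and 0.64 in A2. Id1, an inhibitor of basic helix-loop-helix factors and a direct SMAD target, went from 5.83, 3.56 and 17.2 CPM to 150, 155 and 225 (4.39 ± 0.42, adjusted p = 0.00106). Id3, of the same family, went from 5.13, 3.56 and 16.7 CPM to 76.4, 104 and 135 (3.67 ± 0.51, adjusted p = 0.00335; 0.0599 without A5). The inhibitory SMAD gene Smad7 was at 6.53 and 6.61 CPM in EpiLC A5 and B1 but at 129 in A2, and at 104, 89.0 and 191 at day 3, and missed the threshold (2.21 ± 0.75, adjusted p = 0.0614). It passed without A2 (3.88, adjusted p = 5.86e-08), and also with all libraries by DESeq2, by limma-trend and in the blocked fit of both genotypes. Of 14 LIF and STAT3 response genes 9 were higher and none lower (median 1.60), and without A2 12 and 0. The medians of this list by line were 2.09 in A5, 2.67 in B1 and 0.63 in A2. Socs3, a feedback inhibitor of the pathway, went from 14.5, 10.2 and 31.8 CPM to 137, 160 and 106 (2.89 ± 0.39, adjusted p = 0.00273). Lifr, the LIF receptor, went from 17.0, 12.4 and 37.6 CPM to 84.4, 103 and 81.0 (2.09 ± 0.34, adjusted p = 0.00489). Both missed the threshold without A5 (0.0673 and 0.0877).

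FGF, WNT and Nodal genes were mixed, beside 16.1% higher and 15.5% lower over all tested genes (26.1% and 25.8% without A2). Of 16 FGF and ERK response genes 2 were higher and 5 lower. Spred1, an inhibitor of ERK signalling, went from 187, 177 and 226 CPM to 29.9, 39.2 and 73.3 (-2.13 ± 0.18, adjusted p = 0.00062). Dusp6, an ERK phosphatase, went from 146, 125 and 208 CPM to 54.6, 41.8 and 73.6 (-1.49 ± 0.16, adjusted p = 0.00126). Neither gene's stages overlapped, and A2 was the highest line for both at both stages. Without A2 the FGF list had 7 higher and 6 lower genes, and its median moved from -0.22 to 0.03. WNT response genes numbered 4 higher and 4 lower of 12 (5 and 4 of 11 without A2), and Nodal and activin genes 4 higher and 1 lower of 12 (9 and 2 without A2). The lower Nodal list member was Fst (follistatin), an activin inhibitor, which went from 30.1, 29.5 and 10.3 CPM to 1.31, 1.66 and 1.53 (-3.85 ± 0.45, adjusted p = 0.00145; 0.0515 without A5).

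Sterol synthesis genes fell. Of 22 tested genes 20 were lower and 1, Ebp (named after its value was seen), higher, with a median of -1.19, and without A2 the counts were 21 and 1. Cyp51, the lanosterol demethylase, went from 343, 297 and 244 CPM to 80.7, 80.0 and 73.3 (-1.91 ± 0.13, adjusted p = 0.000456). Msmo1, which acts after it, went from 331, 277 and 210 CPM to 74.0, 85.3 and 83.8 (-1.74 ± 0.18, adjusted p = 0.000942). The day 3 levels of these enzymes differed little between lines.

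Energy genes moved less, and their counts stand beside 16.1% higher and 15.5% lower over all tested genes (26.1% and 25.8% without A2). Of 29 glycolysis genes 12 were higher and 4 lower (median 0.50; 17 and 4 without A2). Slc2a3, a high-affinity glucose transporter, went from 238, 122 and 626 CPM to 1665, 1772 and 2144 (2.68 ± 0.46, adjusted p = 0.00654; 0.0982 without A5). Aldoc, an aldolase, went from 36.6, 34.0 and 13.9 CPM to 123, 144 and 64.1 (1.99 ± 0.16, adjusted p = 0.000551). Of 34 nuclear genes of the respiratory chain none was higher and 2 lower, and 14 were lower without A2. Of 7 genes of the mitochondrial genome tested 4 were lower and 2 higher (5 and 2 without A2). Among them mt-Nd1, of complex I, went from 4180, 4115 and 3853 CPM to 2590, 2497 and 3485 (-0.52 ± 0.12, adjusted p = 0.0159), and lost its call without A5 or B1 (adjusted p = 0.197 and 0.188).

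Imprinted genes fell more often than they rose. Of 26 tested, 12 were lower and 4 higher, with a median of -0.59, and 13 and 6 without A2. Grb10, a growth-factor adaptor, went from 296, 305 and 84.2 CPM to 9.38, 10.96 and 10.2 (-4.33 ± 0.37, adjusted p = 0.000716). Dlk1, of the Dlk1-Meg3 domain, went from 14.7, 12.4 and 11.5 CPM to 1.96, 1.33 and 1.79 (-2.90 ± 0.29, adjusted p = 0.000942). Meg3, the long noncoding RNA of that domain, went from 937, 1479 and 1199 CPM to 154, 195 and 318 (-2.56 ± 0.44, adjusted p = 0.00682; 0.0974 without A5). Line A2 held the most Meg3 at day 3. No source used here names the strand setting of the counting, so reads of overlapping antisense genes cannot be told apart.

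Of 21 p53 target genes 6 were lower and none higher (7 and 3 without A2). Over all tested genes 15.5% were lower and 16.1% higher (25.8% and 26.1% without A2). Ccng1 (cyclin G1), a p53 target, went from 840 (A5), 859 (B1) and 657 (A2) CPM to 283, 281 and 255 (-1.52 ± 0.13, adjusted p = 0.000593). Its stages lay far apart, and the call held with each line or each EpiLC or day 3 library left out. Of 17 basement membrane and adhesion genes 3 were higher and 4 lower, and 6 and 6 without A2, shares close to those over all genes (16.1% and 15.5%, and 26.1% and 25.8% without A2). Itga6, an integrin subunit on germ cells and stem cells, went from 242, 219 and 332 CPM to 135, 103 and 145 (-1.04 ± 0.11, adjusted p = 0.00103), with A2 the highest at both stages.

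The next 4 lists stand beside 16.1% higher and 15.5% lower over all tested genes (26.1% and 25.8% without A2). Of 25 replication and proliferation genes 7 were higher and 1 lower (7 and 6 without A2, with the median going from 0.12 to -0.09). Of 12 genes of the Myc family and its partners 4 were higher and none lower (6 and 1 without A2). Mxi1, a repressor that pairs with MAX, went from 30.8, 27.9 and 28.5 CPM to 68.3, 61.8 and 56.2 (1.09 ± 0.12, adjusted p = 0.00124), alike in the 3 lines. Of 20 interferon-stimulated genes 7 were higher and 2 lower (12 and 2 without A2). Parp14, one of them, went from 22.4, 11.7 and 19.6 CPM to 106, 54.5 and 24.3 (1.56 ± 0.40, adjusted p = 0.0231; 0.223 at most with a line or library left out). Its day 3 level ranged widely, and in A2 it hardly left the EpiLC level. Of 19 genes known to respond to tissue dissociation 4 were higher and 1 lower (11 and 1 without A2), and their part in the other results was not tested.

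All 6 tested neural ectoderm genes were lower (median -3.30, the same 6 of 6 without A2), and their summed level went from 388 to 626 CPM in EpiLC to 93.0 to 102 at day 3. Dll1, a Notch ligand, went from 87.0, 175 and 36.8 CPM to 11.3, 12.3 and 3.32 (-3.41 ± 0.40, adjusted p = 0.00174). Neurod1, a neurogenic factor, went from 26.4, 34.8 and 13.2 CPM to 1.31, 1.99 and 1.53 (-3.89 ± 0.46, adjusted p = 0.00154). Of 7 tested mesoderm genes 3 were lower and none higher, and without A2 3 of 6 were lower and 1 higher. Over all tested genes 15.5% were lower and 16.1% higher (25.8% and 26.1% without A2). Of 13 trophoblast genes 4 were higher and none lower, and without A2 7 were higher and 1 lower. The 4 were Tfap2c (4.07), Gata2 (3.00), Tfap2a (2.60) and Tead4 (1.67). Gata2, Tfap2a and Tead4 lost their calls without A5 or B1. Gata2 went from 1.87, 1.27 and 21.1 CPM to 32.5, 53.5 and 72.8, while the trophoblast hormone gene Prl3d1 was at 0 counts in all 6 libraries.

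The EpiLC library of A2 held more of several marker groups than the other KO libraries. Summed fibroblast and mesenchyme markers stood at 780 CPM in EpiLC A5, 555 in B1 and 7552 in A2, and at 1231 to 1648 CPM at day 3. Most of each day 3 sum, and of that in EpiLC A2, was Fn1 (given above). Some members were not raised in EpiLC A2: Thy1, a surface protein, had 12 counts there against 63 in A5 and 82 in B1, and Twist1 had 21 against 29 and 24. Col3a1, a fibrillar collagen, had 274 counts in EpiLC A2, and 0 in A5 and 1 in B1. Prrx1, a mesenchyme homeobox gene, had 35 counts in EpiLC A2 and 0 in the other 5 libraries, while Lum was at 0 in all 6. Summed endoderm markers stood at 4878 CPM in EpiLC A2 against 1072 in A5 and 776 in B1, and trophoblast markers at 1469 against 230 and 108. Krt18 and Krt8, on both lists, had 2883 and 2044 counts in EpiLC A2 and were the largest trophoblast members. Other endoderm members were highest in EpiLC A5: Cubn had 98 counts there against 33 in A2, and Dab2 81 against 68. Sox17 (5 counts) and Foxa2 (4) stayed near 0 in EpiLC A2. Beside the calls below, these values move with line A2, and their part in the results was not tested.

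Of 8 tested fibroblast genes 5 were lower and none higher (median -2.62), and without A2 6 were lower and 1, Fn1, higher. Col1a2, a chain of type I collagen, went from 18.9, 21.8 and 180 CPM to 0.218, 1.33 and 0.255 (-6.81 ± 0.69, adjusted p = 0.00113; -4.85 without A2). Every day 3 library lay below every EpiLC library, and EpiLC A2 was the highest. Of 11 tested endoderm genes 4 were lower and none higher, and 6 and 2 without A2. Over all tested genes 15.5% were lower and 16.1% higher (25.8% and 26.1% without A2). Col4a1, a basement membrane collagen, went from 90.7, 51.8 and 918 CPM to 12.7, 11.3 and 18.1 (-3.90 ± 0.84, adjusted p = 0.0138; -2.58 and 3.83e-07 without A2). It missed the threshold without A5 (0.0897), without B1 (0.0583), and without the day 3 library of A5 (0.0614) or A2 (0.0575).

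Single genes were ranked if called, with a mean of at least 10 CPM, no overlap between stages and 1 direction in the lines. Predicted gene models were passed over. Beside those above, the largest rises were in Ly6g6e, Aqp3, Lrrc31, Mep1b, Porcn and Pdlim4. The call of Mep1b was lost without A5 or B1, and that of Porcn without A5. Ly6g6e, a small surface protein gene, had 1 count over the EpiLC libraries and 150 over those of day 3, a ratio of 161 (95% counting interval 28.5 to 6410). Lrrc31, a leucine-rich repeat gene, went from 0.233, 0.762 and 0.718 CPM to 9.38, 17.9 and 8.17 (4.27 ± 0.39, adjusted p = 0.000716). Pdlim4, a LIM domain protein, went from 0.933, 1.27 and 0.239 CPM to 14.6, 15.6 and 7.92 (3.97 ± 0.33, adjusted p = 0.000593). Aqp3, a water and glycerol channel, went from 1.87, 0.762 and 6.46 CPM to 69.2, 63.4 and 64.6 (4.40 ± 0.58, adjusted p = 0.00268; 0.0656 without A5). All 3 lines reached like levels of Aqp3 at day 3.

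Under the same limits, the largest falls were in genes that reached 0 or nearly 0 counts at day 3. Gfra1, the co-receptor of GDNF, had 399 counts over the EpiLC libraries and 0 over those of day 3, at least 124-fold lower when 3 counts in the group are taken as the floor. Spon1 (F-spondin) had 373 and 0 counts, at least 116-fold lower. The protocadherin gene Pcdh18 had 125 and 0 counts, at least 38.7-fold lower. These bounds cover counting error only. Wt1, a zinc-finger factor of the gonad and kidney, went from 39.7, 49.0 and 51.7 CPM to 0.873, 0 and 0.766 (-6.33 ± 0.70, adjusted p = 0.00142). Insm1, a neuroendocrine zinc-finger factor, went from 53.2, 68.6 and 43.5 CPM to 0.436, 0.664 and 1.28 (-6.10 ± 0.54, adjusted p = 0.000716). Other large falls rested in part on the A2 EpiLC library: the CCN-family gene Wisp1 was at 2.57 CPM in A5, 2.54 in B1 and 112 in A2 there, and its change was -7.27 ± 1.07 with A2 and -3.17 (adjusted p = 0.0204) without. Without line A5 the calls of Gfra1 and Spon1 were lost (adjusted p = 0.0552 and 0.0548).

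Some genes with large changes in A5 and B1 missed the threshold with A2 and passed it without. Rhox9, an X-linked homeobox gene of the germ line with near-identical relatives, was at 4.67 CPM in EpiLC A5, 3.56 in B1 and 53.1 in A2, and at 66.1, 41.8 and 36.8 at day 3 (1.55 ± 0.99, adjusted p = 0.265; 3.71 and 4.51e-07 without A2). Neat1, the long noncoding RNA of paraspeckles, was at 19.8, 16.5 and 218 CPM and then at 220, 236 and 249 (2.03 ± 0.85, adjusted p = 0.108; 3.64 and 3.12e-09 without A2). In the other direction Slc27a2, a fatty acid transport gene, was at 95.2, 105 and 42.1 CPM and then at 18.8, 22.2 and 37.0 (-1.82 ± 0.64, adjusted p = 0.0687; -2.29 and 1.19e-07 without A2). Some fits with A2 kept also called Neat1 (limma-trend and the blocked fit of both genotypes) and Slc27a2 (DESeq2 and both fits of both genotypes). These genes were chosen for a call without A2 and none with it, and for stages that did not overlap in A5 and B1. In A2 the stages lay close together, or the other way round for Rhox9, and this contrast follows in part from that choice.

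The KO step was then set against the WT step in a fit of all 18 libraries. Of 12856 genes, 991 (7.71%) had a higher and 1061 (8.25%) a lower step in KO. WT EpiLC replicates differed with a chi-square per degree of freedom of 1.13 to 1.70, where counting noise alone gives about 1, and KO EpiLC lines by 4.12 to 36.03, and no label says that WT replicates were separate cultures. This fit takes a single spread per gene for both genotypes, with a common dispersion of 0.0127 against 0.0365 in the KO fit. Its p-values can therefore be too small for differences that rest on the KO lines. With limma-trend 747 genes had a higher step in KO than WT and 1376 a lower one. The germ cell specification list had a median step of 2.01 in KO and 2.95 in WT, with 1 of 23 differences higher and 2 lower. In the KO fit without A2 the median of this list was 2.93. For Prdm1 the difference was -0.49 ± 0.53 (adjusted p = 0.566), for Prdm14 -0.92 ± 0.64 (0.343), for Tfap2c -1.03 ± 0.66 (0.311) and for Nanog -0.86 ± 0.50 (0.263). A miss of the threshold does not show that the steps were equal, and without A2 these 4 differences lay between -0.03 and 0.46. The formative list had median steps of -1.58 in KO and -2.48 in WT, with 10 of 26 differences higher in KO and 1 lower. In the KO fit without A2 its median was -1.76.

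Enpp2 (autotaxin), which makes lysophosphatidic acid, moved in opposite directions. In KO it went from 26.6, 27.2 and 22.5 CPM to 56.7, 62.8 and 44.2, and in WT from 59.5, 62.3 and 66.2 to 3.14, 3.58 and 4.09. The difference was 5.21 ± 0.25 (adjusted p = 4.09e-09). Pde2a, a cyclic nucleotide phosphodiesterase, stayed at 16.6 to 28.6 CPM at day 3 in KO and fell in WT to a mean of 3.78 (difference 3.46 ± 0.34, adjusted p = 1.93e-05). The WT mean of Pou5f1 fell from 812 to 556 CPM where the KO lines rose (difference 0.96 ± 0.11, adjusted p = 7.51e-05). Mycn, a MYC family factor, went from 86.3, 96.0 and 104 CPM to 235, 234 and 257 in KO and from 166 to 170 on average in WT (difference 1.32 ± 0.23, adjusted p = 0.00228). Dnmt3a fell less in KO than in WT, whose mean went from 1426 to 88.9 CPM (difference 1.43 ± 0.20, adjusted p = 0.000383). The called differences between genotypes of these 5 genes held in each fit with a KO line or a WT EpiLC or day 3 library left out. Their changes within KO were less firm: Pde2a was not called, Enpp2 lost its call without A5 or B1 (adjusted p up to 0.0792) and Mycn without B1 (0.0727), Pou5f1 did as given above, and Dnmt3a kept its call.

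Some pluripotency genes rose less in KO. For Klf4, whose WT mean went from 4.08 to 134 CPM, the difference was -2.67 ± 0.56 (adjusted p = 0.00756; -1.93 and 0.0855 without A2). For Tfcp2l1, whose WT mean went from 13.3 to 422 CPM, it was -2.29 ± 0.57 (adjusted p = 0.0206; -1.16 and 0.0425 without A2). For Sox2, of the shared list, it was -0.67 ± 0.18 (adjusted p = 0.0229; -0.44 and 0.0406 without A2). Of the 20 naive genes the difference was lower in KO for 4 and higher for 1. Wnt7b, a WNT ligand, had 39.8 CPM on average at day 3 in WT and 0.436 in EpiLC, and in KO 3.97, 3.30 and 93.3 CPM in EpiLC and 8.73, 3.98 and 12.3 at day 3 (difference -7.83 ± 1.59, adjusted p = 0.009; -5.56 and 5.17e-07 without A2).

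**Figure D4:**
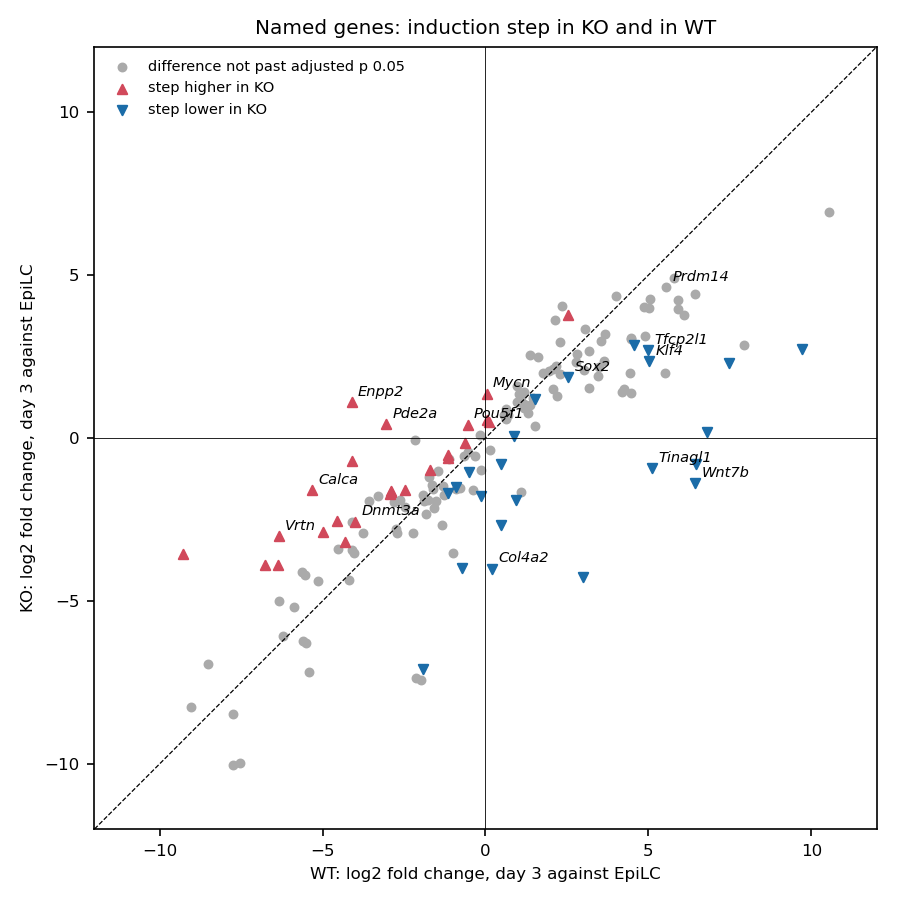
Each point is a named gene, with its log2 fold change from EpiLC to day 3 in WT on the x axis and in KO on the y axis (18-library fit); triangles mark called differences of the 2 steps and the dashed line equal steps. Most named genes lie in the same quadrant in both genotypes, and Enpp2, Pde2a and Pou5f1 lie in the upper left, with a positive KO and a negative WT step.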

How the data were processed

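Per the labels, polyA RNA was read from directional libraries of EpiLC and PGCLC. The authors deposited unique read counts per gene and a CPM table, which equals count over total. Trim Galore 0.4.3.1 and the builds mm10 and GRCm38.p4 stand in the submitters' processing notes. No source used here names the aligner or counter. Of 25965 deposited count rows, 56 had no gene ID (0.0559 to 0.0828% of counts) and were left out.

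Counts were tested with edgeR 4.0.16 (R 4.3.3; quasi-likelihood, robust, TMM, filterByExpr), and adjusted over all tested genes. The KO fit held 9 libraries with line as a block, and the fit of both genotypes held 18. Samples were grouped by label and paired by line name (line A2 is titled KO2 in the labels). Deviations of same-line libraries correlated with r = 0.214, 0.193 and 0.229 across genes, and at most 0.112 with another line. Named genes followed a rule: a fixed set of regulators; the 12 highest and 12 lowest called changes with a mean of at least 10 CPM, no overlap between stages and 1 direction in the lines; up to 4 called members of each list with the largest change; the 6 highest and 6 lowest differences between genotypes; and up to 6 in each direction called without A2 and not in the fit with it. Predicted gene models were passed over in choosing the highest and lowest changes and differences and the genes called only without A2. Members and lists were chosen with earlier results of these data known. Alternatives were DESeq2 1.42.0, limma-trend (limma 3.58.1), RLE scaling, no filter, other sample sets and blocks, and leaving out lines or libraries. Each KO line was left out in turn. Single EpiLC and day 3 libraries were left out of KO in the KO fit and of WT in the fit of both genotypes. The code was tested on simulated data. Depth was 3032965 to 5286330 counts over the 18 libraries. Intervals and floors (3 counts) cover counting error only. The day 5 step was not analysed here, and some single genes are not reported here.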

Additional observations from a re-analysis of the deposited data

Results flagged for a closer look

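The step from EpiLC to day 3 differed between KO and WT for 48 of the 162 named genes tested (edgeR's test of the difference itself, adjusted p under 0.05), and 42 of the 48 were also called without line A2. Over all genes 7.71% were called higher and 8.25% lower, and the named genes include some chosen for the size of this difference. Values are KO minus WT on the log2 scale, fitted with 3 libraries in each of the groups. The limit from a single spread for both genotypes, given above, holds here too. The step was higher in KO for 25 genes. The differences were Slc35d3 5.71, Enpp2 5.21, Calca 3.73, Pde2a 3.46, Xist 3.38, Vrtn 3.33 and Neurod1 2.89 for the highest. Those next in size were Fst 2.48, Dlk1 2.11, Meg3 2.01, Dnmt3a 1.43, Mycn 1.32, Mael 1.28 and Pmaip1 1.25. Smaller differences were Etv1 1.23, Ifitm1 1.23, Gbx2 1.13, Pou5f1 0.96, Dnmt3l 0.90, mt-Cytb 0.72 and mt-Nd1 0.63. The smallest were mt-Nd4 0.52, Top2a 0.49, Uhrf1 0.49 and Max 0.39.

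The step was lower in KO for 23 genes, of which 22 are given. On the low side the differences were Wnt7b -7.83, Ly6a -7.25, Rin3 -7.25, Msx2 -6.99, Ism2 -6.61, Tinagl1 -6.03 and Rtp4 -5.19. They were followed by Col5a2 -5.15, Col4a2 -4.21, Col4a1 -3.26, Col1a1 -3.16, Klf4 -2.67 and Tfcp2l1 -2.29. Nearer to 0 lay Socs3 -1.69, Plk2 -1.63, Cdkn1a -1.28, Dazl -0.81, Sox2 -0.67, Ccng1 -0.61 and Itga6 -0.54. Closest to 0 were Hsd17b7 -0.53 and Suz12 -0.32. The 6 not called without A2 were Etv1, Hsd17b7, Klf4, Ly6a, Msx2 and Suz12. Sizes also moved without A2. The differences were then -3.18 for Col5a2, -2.57 for Col4a2, -1.88 for Col4a1, -2.49 for Col1a1, -1.93 for Klf4 and -1.16 for Tfcp2l1. Other genes moved the other way, such as Ccng1 to -0.69. Fitted values of genes with few counts, such as Ly6a and Msx2, depend on the prior count. Xist overlaps Tsix, whose reads cannot be told apart without the strand setting.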

How the results depend on the processing

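Over fits that left out a line or a library, genes higher at day 3 in KO numbered 256 (without line A5) to 3352 (without the A2 EpiLC library), and genes lower 196 to 3247. Esrrb ranged from 2.51 to 4.84, and without a filter on low counts it was 3.19 (adjusted p = 0.0605). Tinagl1, not called in KO, was -0.63 and ranged from -1.60 to 2.23, with 2.04 without line A2. Genes whose step was higher in KO than in WT numbered 606 to 1430, and lower 643 to 1391. With limma-trend they numbered 747 and 1376. Fewer libraries remain in such fits.

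In the paired analysis, the replicate block is the line. With EpiLC and day 3 libraries alone and the block, 1161 genes were higher and 1079 lower at day 3 in KO; with all 18 libraries and the block in KO, 3229 and 3391. With no replicate block the KO fit called 1505 and 1450 genes, and the difference of steps 380 and 467. The cause was not tested.

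For genes higher and lower at day 3 in KO, DESeq2 called 1760 and 1699, limma-trend 2105 and 1956, and RLE scaling 1949 and 1981. Of 130 named genes called beside Esrrb, 130 kept their direction and 40 their call under each alternative. Genes under about 1 CPM rest on few counts at this depth.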
